A study of Mus musculus with 9 samples.

Results

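The loci of 4 genes, Runx1, Runx2, Runx3 and Cbfb, were followed through the reprogramming of mouse fibroblasts by ATAC-Seq, an assay in which a transposase cuts accessible DNA. The genes were chosen by name, as the 3 mouse Runx genes and their shared partner gene, out of 22223 protein-coding genes of the annotation. Each locus ran from 20 kb upstream of the gene to 20 kb past its end, and every merged peak in that window was counted as a region. Joined over all libraries, the 4 loci held 107 of 211273 regions.

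The starting cells were mouse embryonic fibroblasts (MEFs) carrying GFP at the Oct4 gene. Retroviruses with Oct4, Sox2, Klf4 and c-Myc (OSKM) were added, and the cells were then kept in a feeder-free medium. D0 and D3 cells were not sorted, D6T- and D9T- cells were sorted as negative for the fibroblast surface protein Thy-1, D12S+ and D16S+ cells were sorted as positive for SSEA-1, and iPSCs were fully reprogrammed cells. In 2 further libraries, Thy-1-negative cells of day 6 had received small interfering RNAs against the H3.3 genes H3f3a and H3f3b (D6 siH3.3) or a non-targeting control (D6 siNT). Days count from the OSKM infection, and the transfection preceded it. Each condition had 1 library, so no difference below has a replicate check and no test was made between conditions. A sorted cell that is negative for Thy-1 or positive for SSEA-1 is on the route to pluripotency by that marker only, and each library averages over all cells of its sort.

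RUNX proteins bind DNA through the Runt domain, and CBFβ, the product of Cbfb, binds no DNA itself but strengthens their binding. Runx1 is best known as a regulator of blood stem cell formation, Runx2 as the master regulator of bone-forming cells and Runx3 for its roles in T cells and sensory neurons. Each Runx gene has a distal promoter, P1, and a proximal promoter, P2, whose transcripts differ in the first residues of the protein.

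P1 and P2 transcripts were told apart by the first residues of their coding sequences in GENCODE vM1 on mm9. Runx1 (ENSMUSG00000022952.9) lies on the minus strand of chromosome 16, from 92601712 to 92826311. Its P1 start is at 92826311, and its P2 start at 92697573, 128.7 kb further into the gene. Runx2 (ENSMUSG00000039153.9, with an overlapping second entry ENSMUSG00000092206.1) lies on the minus strand of chromosome 17, from 44632936 to 44951746. Its P1 start is at 44951530 and its P2 start at 44873597, 77.9 kb downstream. Runx3 (ENSMUSG00000070691.4) is the most compact of the 3, on the plus strand of chromosome 4 from 134676567 to 134733905, with P2 at 134708411, 31.8 kb downstream of P1. Cbfb (ENSMUSG00000031885.7), on the plus strand of chromosome 8 from 107694574 to 107741886, has 1 promoter.

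The distal promoters carry a shared sequence, which is shown because all 3 P1 promoters hold it and no P2 promoter does. Within 250 bp on either side of the start, all 3 P1 promoters held 2 copies of ACCACA, the reverse complement of the core Runx motif TGTGGT, with 2 bases between them. The 30 bases around this pair read as follows on the strand of the gene, with matches to TGTGGT or TGCGGT on either strand in capitals.
Runx1 P1 (chr16:92826270-92826299): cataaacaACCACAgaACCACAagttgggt
Runx2 P1 (chr17:44951532-44951561): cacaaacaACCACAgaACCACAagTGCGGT
Runx3 P1 (chr4:134676418-134676447): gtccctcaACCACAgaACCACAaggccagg
The pair began 20 bases after the annotated P1 start of Runx1, 23 bases before the Runx2 start at 44951530 and 141 bases before the P1 start of Runx3. Other coding transcripts of Runx2 start at 44951576, upstream of the pair, so its side of the start depends on the transcript. Searched on both strands, the spaced pair was present at 8 of 31246 starts of protein-coding transcripts (0.0256%). Of these, 3 were the Runx P1 promoters and 5 belonged to Card6, Nsun4, Nlrp4b, Fbxw21 and Olfr24, named after the search was seen. The pair was singled out because the 3 P1 promoters hold it, so their place in that count was given in advance. A single TGTGGT or TGCGGT was present at 34.4% of the 31246 starts. None of the P2 promoters held either motif in the same 500 bp, and neither did the Cbfb promoter.

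The P2 promoters held more of the dinucleotide CG than the P1 promoters. In 500 bp around the start, CG occurred 44 times at Runx1 P2, 32 times at Runx2 P2 and 78 times at Runx3 P2, against 7, 6 and 14 times at the respective P1. The Cbfb promoter held 55. The 200 bases upstream of Runx1 P2 and of Cbfb, the promoters of the family that were accessible in every library, are given with each CG in capitals.
Runx1 P2 (chr16:92697574-92697773, minus strand): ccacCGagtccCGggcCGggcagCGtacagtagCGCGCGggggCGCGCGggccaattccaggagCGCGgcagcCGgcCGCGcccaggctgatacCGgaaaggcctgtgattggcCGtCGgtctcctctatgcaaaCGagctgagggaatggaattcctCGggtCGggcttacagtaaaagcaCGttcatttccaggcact
Cbfb (chr8:107694374-107694573, plus strand): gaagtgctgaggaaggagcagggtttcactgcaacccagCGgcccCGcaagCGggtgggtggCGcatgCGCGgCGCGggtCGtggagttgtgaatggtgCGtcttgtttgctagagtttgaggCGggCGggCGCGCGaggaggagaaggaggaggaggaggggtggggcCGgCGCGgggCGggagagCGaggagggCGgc
The first stretch holds 22 CG and the second 21. Over the 200 bases upstream of the start, Runx3 P2 held 28 CG but Runx2 P2 only 4.

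The libraries differed widely in depth, from 13213117 tags in D9T- to 31714845 in D0, and in the number of regions, from 36708 in D9T- to 133132 in D6T-. Pileups, the number of tags over a summit, are therefore given per 1000000 total tags (CPM), with exact Poisson 95% intervals that cover counting error only. A region not listed was not called in that library, and its pileup there is not known. The lowest pileup called in a library was between 0.331 CPM in D3 and 0.530 CPM in D9T-. Signal over background differed as well: at the regions found in all 9 libraries, the median pileup was 0.883 CPM at D0, 1.985 at D3, 3.41 at D6T-, followed by 1.36 in the D9T- cells, 2.101 in D12S+, 1.98 at D16S+, 1.05 in iPSCs, 1.29 in D6 siH3.3 and 1.19 in D6 siNT. Levels in CPM carry these differences, and their part in each level below was not separated further than by the scaled values given. The promoters of 8 pluripotent marker genes were open for 3 genes at D0, 4 at D3 and at D6T-, followed by 2 in the D9T- cells, 7 in D12S+ and all 8 at D16S+ and in iPSCs, with 1 in D6 siH3.3 and 2 in D6 siNT. Pou5f1, the gene of Oct4, lay at 9.37 CPM or more in all 9 libraries, D0 included. The promoters of 8 fibroblast markers did not separate the cell types, with 6 open at D0 and 5 in iPSCs. In the other libraries, 8 were open at D3, 7 at D6T-, 4 at D9T- and 7 in each of D12S+ and D16S+. D6 siH3.3 had 4 and D6 siNT 5. Over all genes, the promoter was open for 55.7% at D0, 61.7% at D16S+ and 62.2% in iPSCs. Of 4 endothelial markers, 0 to 4 were open in a library, and of the blood genes, Vav1 was open in all 9 libraries (0.752 to 2.197 CPM), Cd34 in 8, Ly6g in 3 and Itgam in 1, while Ptprc, Cd3e and Hbb-b1 had no promoter region in any library. The part of other cell types in the values was not tested.

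Runx1 and Runx2 had many regions in the early libraries and few in the late ones, Cbfb stayed between 4 and 8 regions throughout, and Runx3 followed a course of its own. At Runx1, 15 regions were found at D0, 24 at D3, 29 at D6T-, followed by 6 in the D9T- cells, 10 in D12S+, 3 at D16S+ and 4 in iPSCs, with 10 in D6 siH3.3 and 9 in D6 siNT. Runx2 had 13 regions at D0, 18 at D3, 27 at D6T-, followed by 3 in the D9T- cells, 8 in D12S+, 2 at D16S+, 7 in iPSCs, 8 in D6 siH3.3 and 7 in D6 siNT. Per 100 kb, Runx2 held 1.19 times the genome-wide density of regions at D0, 1.51 times at D6T- and 0.609 times at D9T-. It held 1.04 times that density at D12S+, 0.294 times at D16S+ and 0.845 times in iPSCs. Runx1 held 1.86 times the genome-wide density at D0 and 2.19 times at D6T-, but 0.599 times at D16S+ and 0.654 times in iPSCs. The median window of all protein-coding genes was denser than the genome, with 4.57 regions per 100 kb at D0, 7.69 at D6T- and 4.09 in iPSCs. Runx1 held 5.67, 10.96 and 1.51 per 100 kb in these libraries. Runx2 held 3.62, 7.525 and 1.95, below the median gene window in each. With the same number of strongest regions taken from every library, which removes the difference in total number, Runx1 had 7 regions in each of D0, D3, D6T- and D12S+ and 3 in each of D16S+ and iPSCs, and Runx2 had 5 at D0 and D6T-, 7 at D3, 3 at D12S+ and 2 in each of D16S+ and iPSCs.

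**Figure D1:**
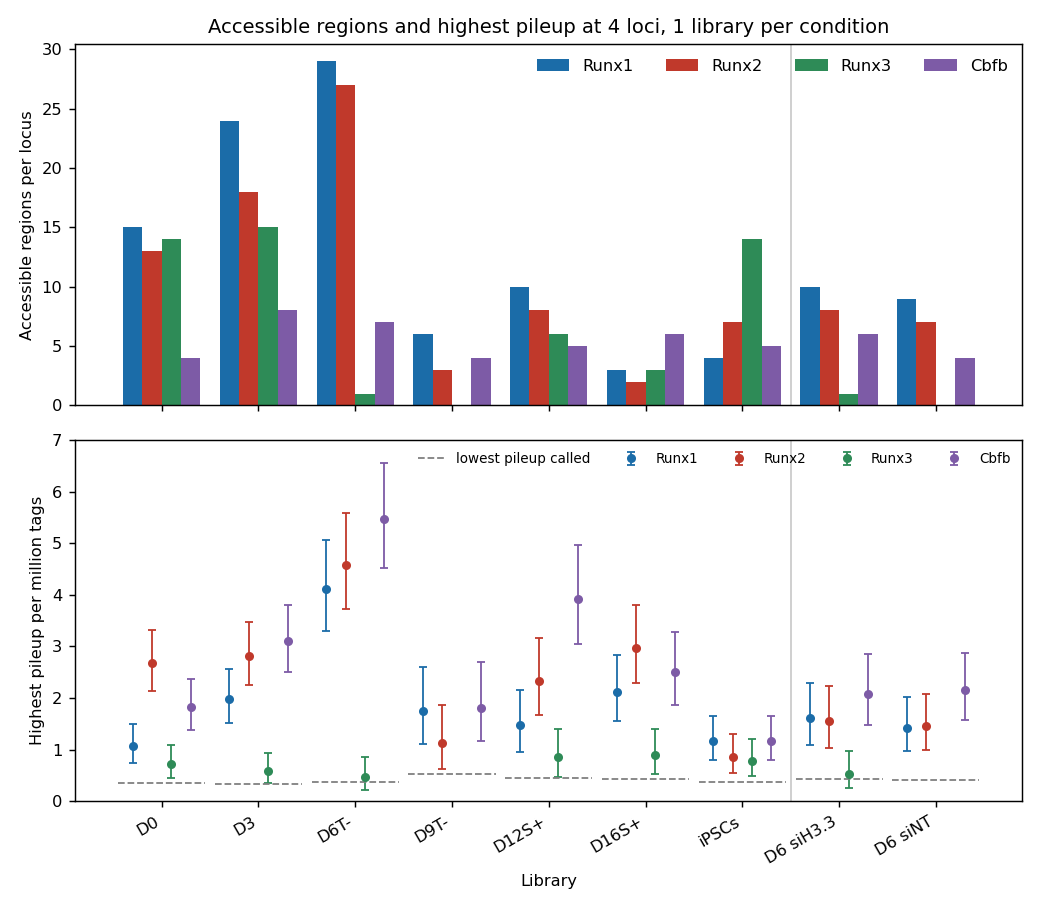
Top, number of accessible regions in the window of each gene (y axis) in the 9 libraries (x axis, the 2 siRNA libraries to the right of the grey line). Bottom, highest pileup in CPM at the same loci with exact Poisson 95% intervals, and the lowest pileup called in each library as a dashed line. Runx1 and Runx2 peak at D6T- with 29 and 27 regions, while Runx3 has 14 at D0 and in iPSCs and 1 at D6T-.

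At Runx3, 14 regions were found at D0, 15 at D3, 1 at D6T-, followed by none in the D9T- cells, 6 in D12S+, 3 at D16S+ and 14 in iPSCs, with 1 in D6 siH3.3 and none in D6 siNT. D6T-, the library with the most regions in all, thus had 1 region at Runx3, at 0.206 times the genome-wide density, whereas D0 had 4.72 times and iPSCs 6.23 times that density. Per 100 kb, Runx3 held 14.4 regions at D0 and in iPSCs, against 4.57 and 4.09 in the median window of all protein-coding genes. A window with at least 14 regions at D0 and at most 1 at D6T- was seen for 16 of 22223 protein-coding genes (0.0720%), and one with at least 14 in iPSCs and at most 1 at D6T- for 4 of them (0.0180%); both limits were set to the Runx3 values after these were seen. The Runx3 regions were weak. Their highest pileup was 0.725 CPM (interval 0.460 to 1.09) at D0, 0.595 at D3, 0.468 at D6T-, 0.852 at D12S+, 0.897 at D16S+, 0.790 in iPSCs and 0.536 in D6 siH3.3. All of these intervals overlapped, and in D6T- the value stood close to the lowest pileup called, 0.374 CPM. With the same number of strongest regions per library, 2 were left at D0, none at D3 and D6T-, and 4 in iPSCs.

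The D0 and iPSC regions of Runx3 were mostly at different places. Of the 14 regions at D0, 1 overlapped a region of iPSCs, so 92.9% (exact binomial 95% interval 66.1 to 99.8%) had none there. Over all D0 regions this share was 71.7%, which lies inside that interval. The shared one was the P1 promoter. At 33.1 kb a D0 and an iPSC region lay in 1 joined region without overlapping each other. With midpoints within 500 bp counted as shared, 85.7% of the D0 regions had none in iPSCs. Regions of both kinds lay along the whole gene: 7 were found at D0 alone, from 0.796 to 48.8 kb downstream of P1, and the regions at 29.9 and 46.2 kb were found in D12S+, D16S+ and iPSCs alone. The stronger of these, in an intron 46.2 kb downstream of P1 (chr4:134722197-134723164), stood at 0.852 CPM in D12S+, 0.897 in D16S+ and 0.790 in iPSCs and was not called in the other 6 libraries. The strongest D0 region, also intronic, at 51 kb (chr4:134727234-134727861), stood at 0.725 CPM at D0 and 0.529 at D3 and in no other library. The median GC content in 300 bp around the summits of Runx3 regions was 55.8% at D0 and 57% in iPSCs, against 50.3% and 54.7% over all regions of these libraries. Its part in the number of regions called was not tested.

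Of the 7 promoters of the family, taken as 3 kb upstream of each start, 2 were open in all 9 libraries, Runx1 P2 and the Cbfb promoter. Over all 31246 protein-coding starts, 33.5% were open in all 9 and 32.0% in none. Runx1 P2 (region chr16:92697368-92699309) stood at 0.725 CPM at D0, 1.85 at D3, 3.93 at D6T-, followed by 1.74 in the D9T- cells, 1.48 in D12S+, 2.13 at D16S+, 1.17 in iPSCs, 1.34 in D6 siH3.3 and 1.10 in D6 siNT. D0 was the lowest and D6T- the highest. The Cbfb promoter (chr8:107694026-107695703) stood at 1.01 CPM at D0, 3.11 at D3, 5.47 at D6T-, followed by 1.82 in the D9T- cells, 3.92 in D12S+, 2.50 at D16S+, 1.17 in iPSCs, 1.98 in D6 siH3.3 and 2.16 in D6 siNT. Its D6T- value was the highest pileup of the 4 loci in any library, and its order over the time course followed that of the median common region in placing D0 and iPSCs lowest and D6T- highest.

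The distal promoters of Runx1 and Runx2 were called open only in D0, D3 and D6T-, and that of Runx3 only at D0 and in iPSCs. The other day 6 libraries, D6 siH3.3 and D6 siNT, had no region at any P1. They held 47348 and 46481 regions in all, against 133132 in D6T-. Apart from Runx2 P1 at D6T-, which 32.8% of the regions of that library equalled or exceeded, the P1 regions were weak. With the same number of strongest regions per library, each of the 3 P1 promoters was open in 0 libraries. Runx1 P1 had a region of 0.504 CPM at D0, 0.595 at D3 and 0.655 at D6T- and none in the other 6 libraries. These summits lay 1924 to 2149 bp upstream of the start, and a separate region over the start itself (chr16:92826143-92826436) was called at D6T- alone, at 0.608 CPM. Runx2 P1 stood at 0.410 CPM at D0, 0.628 at D3 and 1.22 at D6T-, with summits 248 to 372 bp upstream of the start, and was not called in the other 6 libraries. Runx3 P1 was called at D0, at 0.441 CPM, and in iPSCs, at 0.527 CPM.

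Among the proximal promoters, that of Runx2 was accessible in fewer libraries than that of Runx1. The 3 kb upstream of Runx2 P2 held a region at D0 (0.473 CPM), D3 (0.860), D6T- (1.31) and D12S+ (0.795), with summits 1502 to 1538 bp upstream of the start. A second region just downstream of the P2 start, in the 5′ UTR (chr17:44872612-44873582), was found in 6 libraries, at 0.441 CPM at D0, 0.860 at D3, 1.08 at D6T-, 0.756 at D16S+, 0.677 in iPSCs and 0.505 in D6 siNT; the noncoding transcript Gm10497 overlaps it on the other strand. The 3 kb upstream of Runx3 P2 held a region at D3 (0.496 CPM), D12S+ (0.738), D16S+ (0.756) and iPSCs (0.752) and none at D0. The summits of these lay 3058 bp upstream of the start at D3 and 1882 to 1949 bp upstream in D12S+, D16S+ and iPSCs. At the start itself, a joined region (chr4:134708114-134708484) was found at D3 (0.430 CPM) and in iPSCs (0.602) alone.

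**Figure D2:**
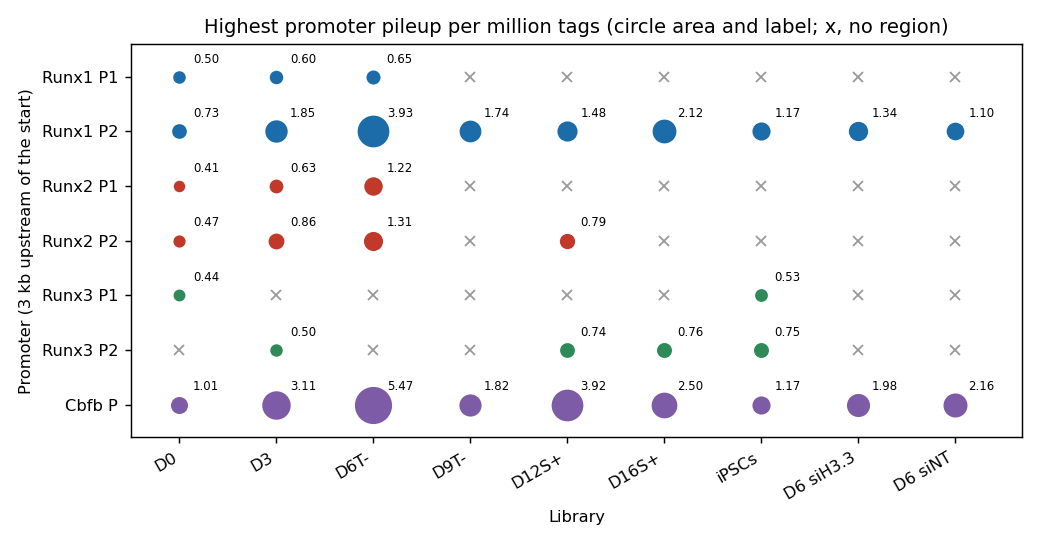
Highest pileup in CPM in the 3 kb upstream of the 7 starts (rows) in the 9 libraries (columns). Circle area is proportional to the printed value and a cross marks a promoter with no region. The rows of Runx1 P2 and Cbfb are filled in all 9 libraries, and those of Runx1 P1 and Runx2 P1 only at D0, D3 and D6T-.

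Away from the promoters of the family, 5 regions of the 4 loci shared the same course: they were found in all 7 libraries up to D12S+, the siRNA libraries included, and in neither D16S+ nor iPSCs. These 5 made up 4.67% of the 107 regions, and 1.72% of all joined regions on the assembled chromosomes had that course. Runx1 contributed 3 of them, Runx2 1, Cbfb 1 and Runx3 none. The strongest Runx1 region of any library was one of them, in an intron 205.2 kb downstream of P1 (chr16:92620831-92622077). It stood at 1.07 CPM (0.742 to 1.498) at D0, 1.985 at D3, 4.11 (3.299 to 5.07) at D6T-, followed by 1.21 in the D9T- cells and 0.852 in D12S+, with 1.23 in D6 siH3.3 and 0.597 in D6 siNT. Its neighbours at 201.9 kb (chr16:92623986-92624863) and 216.6 kb (chr16:92609446-92610336) reached 2.43 and 2.76 CPM at D6T-, and the latter lies near the start of the noncoding gene Gm16801.

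The Runx2 region of this kind, intronic and 314.0 kb downstream of P1 (chr17:44637093-44637961), was the strongest Runx2 region. It stood at 2.68 CPM (2.14 to 3.31) at D0, 2.28 at D3, 4.58 at D6T-, followed by 0.984 in the D9T- cells and 1.36 in D12S+, with 1.55 in D6 siH3.3 and 1.47 in D6 siNT. At D0 only 0.195% of all regions had a pileup as high, and it exceeded the median common region 3.04 times. At D16S+ and in iPSCs it was not called, and the lowest pileups called in these libraries were 0.425 and 0.376 CPM. The Cbfb region lay in an intron 16.1 kb downstream of the start (chr8:107710145-107710956), with 1.83 CPM at D0, 2.94 at D3, 4.72 at D6T-, followed by 1.59 in the D9T- cells, 1.36 in D12S+, 1.55 in D6 siH3.3 and 1.65 in D6 siNT. At D0 it was above the Cbfb promoter, which had 1.01 CPM.

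The strongest region of each gene that was called at D0 and not in iPSCs is given as the 200 bases around the summit, on the strand of the gene. The 4 are shown as 1 example per gene, and they differ in their motifs. A link between motif and loss was not tested. Capitals mark the AP-1 motif TGANTCA, whose reverse complement has the same form, and the Runx motif.
Runx1, 205.2 kb (chr16:92621051-92621250): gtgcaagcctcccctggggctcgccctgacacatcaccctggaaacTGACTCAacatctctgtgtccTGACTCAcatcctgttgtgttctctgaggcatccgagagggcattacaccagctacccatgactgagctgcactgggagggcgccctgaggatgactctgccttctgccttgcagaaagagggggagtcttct
Runx2, 314.0 kb (chr17:44637445-44637644): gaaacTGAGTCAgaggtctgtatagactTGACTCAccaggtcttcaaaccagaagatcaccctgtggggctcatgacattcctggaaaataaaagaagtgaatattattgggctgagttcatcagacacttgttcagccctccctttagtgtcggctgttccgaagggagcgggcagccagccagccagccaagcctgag
Runx3, 51 kb (chr4:134727471-134727670): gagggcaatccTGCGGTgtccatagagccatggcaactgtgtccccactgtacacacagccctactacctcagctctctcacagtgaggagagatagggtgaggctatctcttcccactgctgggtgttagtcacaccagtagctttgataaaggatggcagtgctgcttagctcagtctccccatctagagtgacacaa
Cbfb, 16.1 kb (chr8:107710534-107710733): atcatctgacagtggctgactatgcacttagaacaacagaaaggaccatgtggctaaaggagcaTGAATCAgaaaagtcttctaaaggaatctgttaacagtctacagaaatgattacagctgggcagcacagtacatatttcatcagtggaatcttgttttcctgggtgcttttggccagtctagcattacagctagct
The Runx1 and Runx2 stretches hold 2 matches each and the Cbfb stretch 1, with no Runx motif in any of them. The Runx3 stretch holds 1 Runx motif and no AP-1 match, and none of the 4 holds the octamer ATTTGCAT on either strand.

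Over the 4 loci together, AP-1 matches in the 300 bp around the summit were found in 18 of 46 regions at D0 (39.1%), 36 of 64 at D6T- (56.3%) and 3 of 30 in iPSCs (10.0%). Over all regions of these libraries the shares were 31.5%, 38.4% and 8.66%, so the loci moved in the same order as the whole libraries. Within the loci, 10 of the 15 Runx1 regions at D0 held the motif, and 1 of the 14 Runx3 regions did. The Runx motif, TGTGGT or TGCGGT, was found in 41.3% of the regions of the loci at D0, 42.2% at D6T- and 33.3% in iPSCs, against 29.9%, 28.6% and 24.2% of all regions. The octamer was present in 1, 3 and 0 regions. A match is a run of letters in a window and was not tested for binding.

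**Figure D3:**
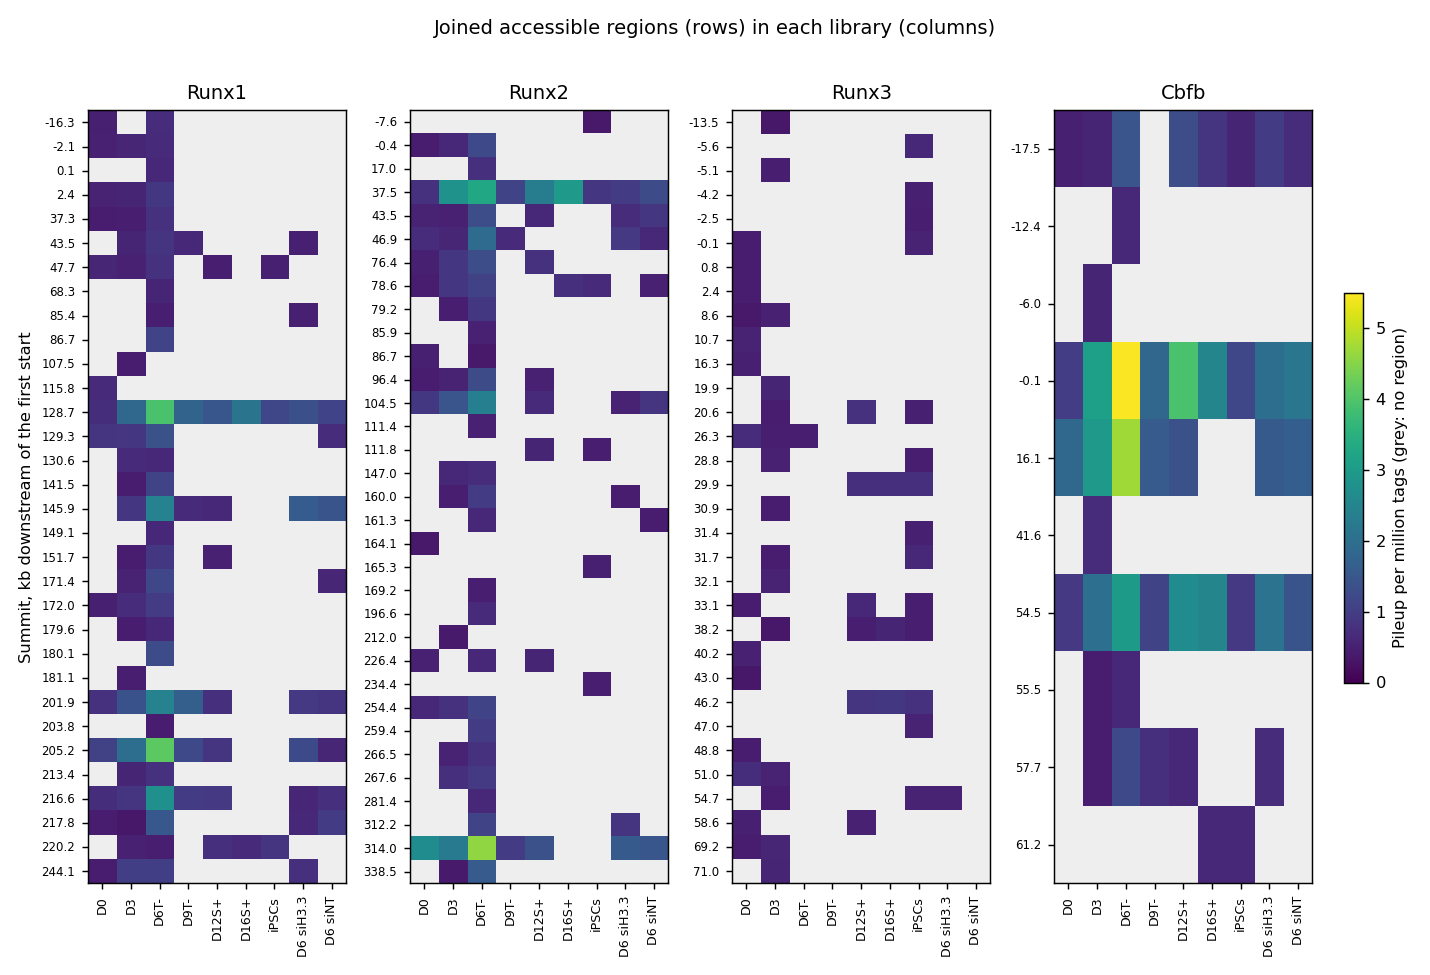
Each row is a joined accessible region, labelled with the distance of its summit from the first start of the gene in kb (downstream is positive), and each column a library. Colour gives the pileup in CPM, and grey marks no region. The rows at 205.2 kb of Runx1, 314.0 kb of Runx2 and 16.1 kb of Cbfb are filled up to D12S+ and grey at D16S+ and in iPSCs, whereas 2 rows of Runx3 are filled at both D0 and iPSCs and the others at one or neither. In the Runx3 row at 33.1 kb, the D0 and iPSC regions do not overlap each other and are joined through a D12S+ region.

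A Runx1 region 145.9 kb downstream of P1 (chr16:92679861-92680861) was absent at both ends of the course. It was not called at D0 and stood at 0.860 CPM at D3, 2.43 at D6T-, followed by 0.681 in the D9T- cells and 0.625 in D12S+, then was not called at D16S+ or in iPSCs. In D6 siH3.3 and D6 siNT it was the strongest region of the locus, with 1.61 and 1.42 CPM. The intronic stretch 22 to 25 kb downstream of Runx1 P1, where a known enhancer of Runx1 in blood stem cells lies, held no region in any of the 9 libraries.

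In all 9 libraries, 4 regions of the loci were found, 3.74% of the 107 against 5.86% of all joined regions. They were the Runx1 P2 and Cbfb promoters and 2 regions at the starts of other genes. The region 37.5 kb downstream of Runx2 P1 (chr17:44913566-44914836) lies in a Runx2 intron and covers the start of Supt3h, a component of a transcription coactivator complex that is read from the opposite strand. It stood at 0.788 CPM at D0, 2.81 at D3, 3.27 at D6T-, followed by 1.14 in the D9T- cells, 2.33 in D12S+, 2.98 at D16S+, 0.865 in iPSCs, 0.964 in D6 siH3.3 and 1.29 in D6 siNT. At D3 and from D9T- to iPSCs it was the strongest region in the Runx2 window, so the highest pileup of Runx2 in those libraries is that of the Supt3h start. The fourth (chr8:107748283-107749736) covers the start of D230025D16Rik, downstream of Cbfb, with 0.903 CPM in iPSCs to 2.99 at D6T-.

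Of the 30 regions of the loci in iPSCs, 22 had no region at D0, or 73.3% (54.1 to 87.7%), against 63.5% of all iPSC regions. Runx3 held 13 of these 22, Runx2 5, Runx1 2 and Cbfb 2. At Runx1, the strongest region called in iPSCs and not at D0 lay over a coding exon near the end of the gene, 220.2 kb from P1 (chr16:92605856-92607120), with 0.828 CPM in iPSCs, 0.661 at D16S+, 0.738 at D12S+, 0.496 at D3 and 0.468 at D6T-. At Runx2 the corresponding region, intronic at 165.3 kb (chr17:44786070-44786330), was found in iPSCs alone at 0.489 CPM. At Cbfb it lay within D230025D16Rik, 61.2 kb from the Cbfb start (chr8:107755479-107755844), at 0.602 CPM in iPSCs and 0.614 at D16S+. The corresponding Runx3 region was that at 46.2 kb, with 0.790 CPM in iPSCs. All 4 stood below 0.83 CPM in iPSCs.

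Of the 46 regions found at D0 in the 4 loci, 38 had no region in iPSCs, or 82.6% (68.6 to 92.2%), and 39 had none at D16S+, or 84.8% (71.1 to 93.7%). Over all D0 regions the shares were 71.7% and 72.6%. By gene, 13 of 15 D0 regions of Runx1, 11 of 13 of Runx2, 13 of 14 of Runx3 and 1 of 4 of Cbfb had no region in iPSCs. The background share lay inside the interval for the 4 loci together, and inside that of each gene. From D6T-, 44 of 64 regions had none at D12S+ (68.8%) and 57 had none at D16S+ (89.1%, 78.8 to 95.5%), against 66.2% and 75.4% of all D6T- regions. The D16S+ share of the loci lay above its background by more than the counting interval, which treats regions as independent.

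As the highest pileup of each locus, Runx1 stood at 1.07 CPM at D0, 4.11 at D6T- and 1.17 in iPSCs, Runx2 at 2.68, 4.58 and 0.865, and Cbfb at 1.83, 5.47 and 1.17. From D0 to iPSCs, the log2 ratio was -1.63 (-2.36 to -0.95) at Runx2, -0.65 (-1.33 to 0.00) at Cbfb, 0.12 (-0.63 to 0.87) at Runx1 and 0.12 (-0.80 to 1.04) at Runx3. These ratios compare the strongest region of each library and follow no single site, since at all 4 loci the strongest region at D0 was another than in iPSCs: at Runx1 the intronic region at 205.2 kb at D0 and P2 in iPSCs, and at Runx2 the region at 314.0 kb and the Supt3h start. Relative to the median region found in all 9 libraries, they were -1.89 at Runx2, -0.90 at Cbfb, -0.13 at Runx1 and -0.13 at Runx3. From D0 to D6T- the log2 ratio was 1.94 at Runx1, 0.77 at Runx2 and 1.58 at Cbfb, but relative to the median region found in all 9 libraries these turned to -0.01, -1.18 and -0.37. The strongest region at Runx1 and Runx2 was the same one at D0 and D6T-, and at Cbfb it was the intronic region at D0 and the promoter at D6T-. The rise in CPM at D6T- was no larger than that of the common regions.

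The genes whose highest pileup followed the members most closely over the 9 libraries were Klhl4, Gm2431 and Asl for Runx1, each with Pearson's r of 0.99, and Tkt (0.97), Gpd2 (0.97) and Ldlrad3 (0.96) for Runx2. For Cbfb they were Prmt7, Slc7a6os and Clu, each at 0.99, where Prmt7 and Slc7a6os share their strongest region. A library without a region entered at its lowest pileup called, so part of the likeness is that of the detection limit: this held for 4 of the 9 values of Klhl4 and 6 of Gm2431, and for none of Asl, of the Runx2 and Cbfb lists or of Runx1, Runx2 and Cbfb themselves. These values describe 9 points that share library depth and enrichment: 1549 of 20782 genes exceeded r of 0.9 with Runx1 and 2045 with Cbfb, but 124 with Runx2 and 5 with Runx3. The 3 closest to Runx3 were Grik3 (0.96), Oas1h (0.93) and Gm6804 (0.93), with 2, 3 and 4 libraries without a region, against 2 for Runx3. Between members, r was 0.83 for Runx2 and Cbfb, 0.77 for Runx1 and Cbfb, 0.65 for Runx1 and Runx2, and -0.35 for Runx1 and Runx3.

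To describe these loci after an early depletion of H3.3, the replacement histone that the study targeted, D6 siH3.3 was set against D6 siNT. The paper reports this knockdown as transient and limited to early reprogramming. The values below therefore describe day 6 cells after that depletion, and their H3.3 level was not measured here. The 2 libraries shared 15 regions at the loci, 6 at Runx1, 5 at Runx2, 4 at Cbfb and none at Runx3. One was more than 1.5-fold higher in D6 siH3.3 and 1 more than 1.5-fold lower, against 9.81% and 5.21% of the 34300 regions shared by the 2 libraries genome-wide. The median log2 ratio was 0.08 at the loci and 0.08 over all shared regions. The higher one was the Runx1 intronic region at 205.2 kb, with pileups of 23 and 13 tags, or 1.23 CPM in D6 siH3.3 and 0.597 in D6 siNT, a log2 ratio of 1.05 (0.00 to 2.15). Its interval began at 0.00, and the intervals of all other 14 regions included 0. The lower one, a Runx2 intronic region at 104.5 kb (chr17:44846697-44847225), had 0.536 and 0.826 CPM, a log2 ratio of -0.63 (-1.90 to 0.57).

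The 2 promoters that were open in both siRNA libraries differed little. Runx1 P2 stood at 1.34 CPM in D6 siH3.3 and 1.10 in D6 siNT, with a log2 ratio of 0.28 (-0.59 to 1.15), and the Cbfb promoter at 1.98 and 2.16 CPM, with a ratio of -0.12 (-0.78 to 0.53). The region at 314.0 kb of Runx2 had a ratio of 0.08 (-0.70 to 0.85). A further 8 of the 25 regions in D6 siH3.3 overlapped none in D6 siNT, and 5 of the 20 in D6 siNT overlapped none in D6 siH3.3, at 0.413 to 0.857 CPM. These were 32% (14.9 to 53.5%) and 25% (8.66 to 49.1%), against 24.8% and 23.9% of all regions of the 2 libraries. The one beside the Supt3h start (D6 siH3.3) and the one at 217.8 kb of Runx1 (D6 siNT) each lay next to a region that both libraries shared. Of the 13, all but 1 overlapped a region of D6T-. The exception was the only Runx3 region of the pair, at a coding exon 54.7 kb from P1, with 10 tags or 0.536 CPM in D6 siH3.3.

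**Figure D4:**
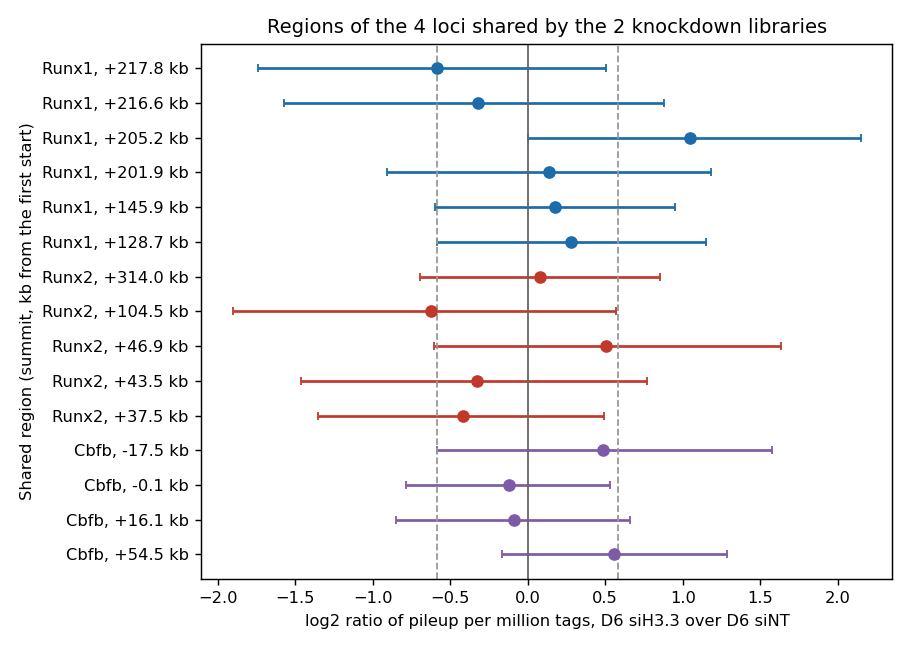
log2 ratio of the pileup in CPM in D6 siH3.3 over D6 siNT (x axis) for the 15 regions of the 4 loci shared by both libraries (y axis, with the distance of the summit from the first start). Bars are exact 95% intervals for counting error, and dashed lines mark 1.5-fold. The region at 205.2 kb of Runx1 has the highest ratio, 1.05, and all other bars cross 0.

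The genes around the family were taken from lists. Of 11 genes for cofactors of RUNX proteins, corepressors such as Tle1 to Tle4 and coactivators such as Ep300 and Crebbp, 10 had an open promoter at D0, 11 at D3, D6T-, D12S+, D16S+ and in iPSCs, 10 at D9T-, 9 in D6 siH3.3 and 10 in D6 siNT. Over all genes, the promoter was open for 55.7% at D0, 67.2% at D6T-, 48.7% at D9T-, 62.2% in iPSCs, 52.7% in D6 siH3.3 and 53.2% in D6 siNT. Tle1 had 2.27 CPM at D0, 13.1 at D6T- and 3.91 in iPSCs. Among 10 genes known as skeletal targets of Runx2, 6 were open at D0, 6 at D6T-, 3 at D9T-, 4 in iPSCs and 2 in each siRNA library: Mmp13, a collagenase, had 0.631 CPM at D0, 1.03 at D3 and 0.841 at D6T- and no promoter region in the other 6 libraries, D6 siNT included, and Sp7, a bone regulator, had 0.378 at D0 and 0.561 at D6T- only. Alpl, alkaline phosphatase, had 0.599 CPM at D0, 1.04 at D16S+ and 1.20 in iPSCs. Of 9 blood genes known as targets of Runx1, 5 were open at D0, 7 at D6T- and 4 at D9T-. In iPSCs 7 were open, and in each siRNA library 3. Itga2b and Cebpa were open in all 9 libraries, whereas Spi1 was open in none. Csf1r was open only at D3 and D6T-, Gfi1b only at D0 and in iPSCs, and Mpo only at D0, D3, D6T- and in iPSCs. Gfi1, Tal1 and Gata2 were open in some libraries and not in others.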

How the data were processed

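ATAC-Seq peak lists of 9 libraries, 1 per condition, were used. The authors mapped reads to mm9 with STAR, removed duplicates with Picard and called peaks with MACS 2.1.0.20151222 at a q-value of 0.05 or less and without input libraries, no local background and tags extended to 200 bp, per the file headers and methods. The deposited pileup is an unscaled signal, the number of tags over a summit, and the deposited fold enrichment is its ratio to an even spread of tags. Significance was deposited as −log10 values of p and q. Mitochondrial peaks are still in the files, so total tags include mitochondrial ones.

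Within a library, peaks that overlapped were joined, keeping the highest summit. Regions in different libraries were shared at 1 bp of overlap. Pileups were divided by total tags, and windows, promoters and sequences came from GENCODE vM1 and NCBIM37, the mm9 assembly. Promoters were 3 kb upstream of a start, and starts of protein-coding transcripts within 500 bp were counted as 1. Intervals are exact 95% Poisson or binomial intervals. A summit is the highest point of its region, so its interval is not that of a fixed position. Without replicates, no tests were run.

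Named were the 4 members, their promoters, the strongest region of each locus, the strongest region at D0 without one in iPSCs and the reverse, the stretch 22 to 25 kb into Runx1, the 3 genes with the most similar course (a library without a region set to its lowest pileup called), and the listed genes. Older gene symbols were matched through RefSeq synonyms. The members, lists and alternatives were chosen with earlier results of these data known. The count over the blood marker list is not reported here. Functions were tested on simulated peaks. Python 3.11.15, numpy 2.4.6, pandas 2.3.3, scipy 1.17.1 and matplotlib 3.10.9 were used.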

Additional observations from a re-analysis of the deposited data

How the results depend on the processing

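With 1 library per condition, no replicate could be left out. Of 127 alternative values of the main results, 93 stayed within 1.5 times the main count or within a set interval. That interval was the counting interval, except for the median log2 ratio between the siRNA libraries. There it was 1 standard deviation of the region ratios on either side, -0.39 to 0.55, a wide limit. Other values were as follows. With the stronger 50% of the peaks, the 4 loci held 20 regions (D0), 37 (D6T-), 9 (D16S+) and 13 (iPSCs), and Runx3 held 3, 0 and 4 at D0, D6T- and in iPSCs. Open promoters then numbered 1 library for Runx1 P1, 2 for Runx2 P2, 0 for Runx3 P1 and 1 for Runx3 P2. Runx2 P1 was still open in 2 libraries, within 1.5 times its main count of 3. With 36708 strongest regions per library, the loci held 17 at D0, 16 at D6T- and 13 in iPSCs, and Runx3 held 2, 0 and 4. Runx1 P1, Runx2 P1 and Runx3 P1 were then open in 0 libraries and Runx2 P2 in 2. Under both settings, 100% of the D0 regions of Runx3 had none in iPSCs. Of the promoter windows, 1 kb upstream to 100 bp downstream and 500 bp on either side both gave 1 library for Runx1 P1 and 2 for Runx3 P2.

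Scaled to the regions found in all 9 libraries, the log2 ratio of D6T- over D0 reversed to -0.0105 at Runx1, -1.18 at Runx2 and -0.37 at Cbfb, and became -2.58 at Runx3. The cause was not tested. The mean of the 3 strongest regions gave 1.23 at Runx2. Between the siRNA libraries, 0 regions were more than 2-fold lower, and 2 were more than 1.5-fold lower after division by the median ratio. Alternatives chosen after seeing the data left out D9T-, which gave 7 regions absent at D16S+ and in iPSCs alone in place of 5, and 5 regions found in all other libraries in place of 4. With equal numbers of the strongest regions from the 7 earlier libraries, 4 such regions were left. No region under the lowest pileup called, 0.331 CPM in D3 to 0.530 CPM in D9T-, could be seen. No paired analysis was possible because each condition has 1 library.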
